A study of Mus musculus with 6 samples.

Results

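Amino acid transporters were compared between methotrexate-selected and parental mouse mammary carcinoma cells. Members were chosen by gene symbol, as solute carrier (SLC) families 1, 7, 36, 38 and 43 plus Slc3a1, Slc3a2, Slc6a6, Slc6a9, Slc6a14 and Slc16a10. This gave 46 genes of 19933 genes with a value on the arrays. Total RNA of 3 wells of untreated 4T1 cells, named WTR-, and 3 wells of MR13 cells was hybridised to Affymetrix arrays. 4T1 is a carcinoma line from BALB/c mice. MR13 is the line recovered from 4T1 cells that survived methotrexate (MTX), a folate antagonist, given in the labels as 13 µg/ml over at most 2 weeks, whereas the text of the study has another concentration and period. Because MR13 is 1 selected line, the spread between arrays is not that between separate selections. The labels speak of wells and the study of biological replicates, and p-values measure the spread between these samples alone. The study grew 4T1 cells in high-glucose medium with serum and added nonessential amino acids. Surviving cells were recovered in medium without MTX, but whether the wells used for RNA held MTX is not stated. To show how the genes of amino acid supply differ in cells that outlived chemotherapy, each member was compared between MR13 and WTR-.

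All values are the deposited log2 signals, and a difference is MR13 minus WTR- on the log2 scale, so that 1 is a 2-fold change. A gene was called when limma's adjusted p, taken over all 19933 genes, was under 0.05. No detection calls were used. As a guide to the signal of unused genes, the 95th percentile of 1194 odorant and vomeronasal receptor genes lay at 5.56 in WTR- and 5.59 in MR13, and is called the silent-gene level here. Of the 7 epithelial markers checked, Krt8 (13.41 in WTR-, 13.53 in MR13) and Krt18 (12.99 and 12.80) were bright in both groups. The mean level of the 7 markers was 11.98 to 12.05 on the WTR- arrays and 9.16 to 9.31 on the MR13 arrays, with 6 of 7 lower in MR13, among them the adhesion gene Epcam (-4.30) and the tight junction gene Cldn4 (-5.27). Of 7 fibroblast markers, Pdgfra and Dcn were higher and 5 were not called, and the mean level was 6.02 to 6.14 in WTR- and 6.57 to 6.72 in MR13. Of 7 myeloid markers, 2 were higher (Ly6g and Cd68), and the mean level was 5.42 to 5.47 in WTR- and 5.60 to 5.65 in MR13, but Ptprc and Itgam, which define leukocytes and myeloid cells, were under the silent-gene level in both groups. No lymphoid or endothelial marker was called (5 each). The part of these shifts in the transporter results was not tested, and in bulk RNA fewer cells of a type and less RNA per cell cannot be told apart.

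Amino acids cross membranes by carriers that differ in substrate and in driving force. SLC1 and SLC38 carriers use the sodium gradient, SLC36A1 the proton gradient, and SLC43 carriers work without either. The heteromeric transporters pair a light chain of family 7, which moves the substrate, with a heavy chain, SLC3A1 or SLC3A2 (CD98), which brings it to the cell surface. Tumor cells are known for their use of the glutamine exchanger SLC1A5 (ASCT2), the leucine exchanger SLC7A5 (LAT1) and the cystine-glutamate exchanger SLC7A11 (xCT), and the transcription factor ATF4 is known to raise several of these genes when amino acids are short.

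Transporters went both ways in MR13. Of the 46 members, 16 were higher and 7 lower, and 23 were not called. Over all genes tested, 37.6% were called, 17% higher and 20.6% lower. All 3 MR13 values lay above the WTR- range for 17 members and below it for 7, against 22.2% and 25.2% of all genes. The median difference of the members was 0.09, and that of all genes 0.01. A difference of at least 0.5 in either direction was called for 6 members (14.3% of all genes), and 2 were at least 2-fold apart (4.06% of all genes), both shares near those of all genes. In 13 members both group means were under the silent-gene level, and 33 members passed it in at least 1 group. Of these 33, 14 were higher and 7 lower, where 51.2% of all genes that passed it were called.

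**Figure D1:**
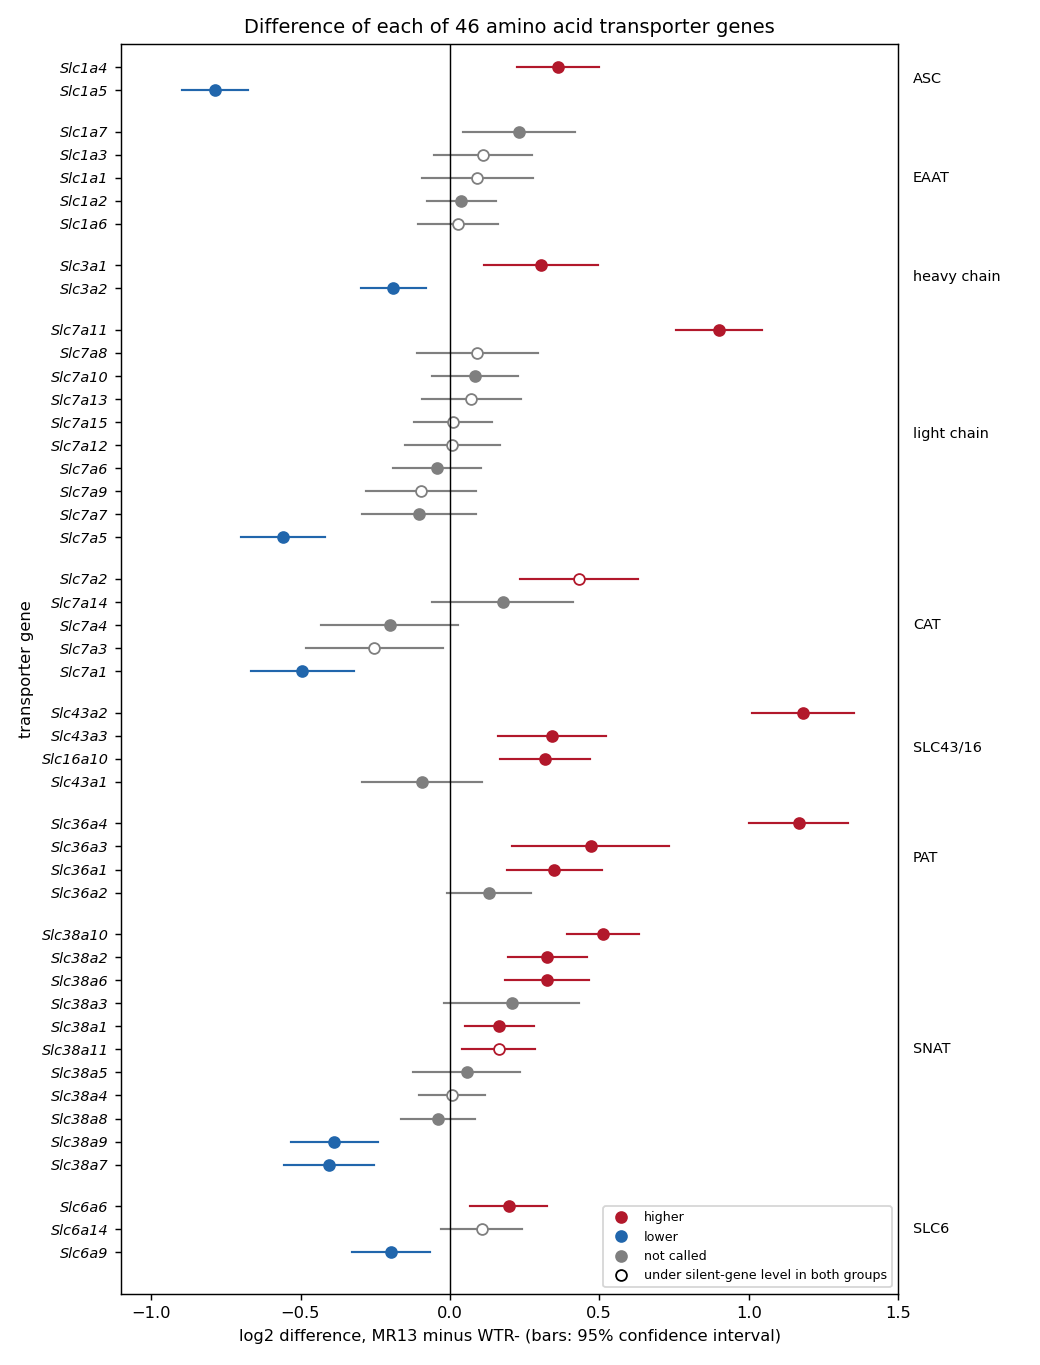
The 46 transporter genes, grouped by family (y axis), with their log2 difference between MR13 and WTR- (x axis). Points are limma estimates, bars 95% confidence intervals, colours the call at an adjusted p under 0.05, and open points genes under the silent-gene level in both groups. Slc43a2 (1.18) and Slc36a4 (1.17) lie farthest to the right and Slc1a5 (-0.79) farthest to the left, whereas none of the 5 glutamate carriers (EAAT) was called.

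The exchanger genes of the cell surface moved in opposite directions. Slc1a5 (probe set 10550332), which brings glutamine in against other neutral amino acids, read 11.40, 11.42 and 11.42 in WTR- and 10.60, 10.65 and 10.63 in MR13. The groups were far apart, with a spread of at most 0.02 (SD) in either, and the gene fell 1.72-fold (difference -0.79, SE 0.05, adjusted p = 2.78e-06). Its relative Slc1a4, the ASCT1 carrier of alanine, serine and cysteine, rose from 9.14 ± 0.06 to 9.50 ± 0.07 (SD, n = 3 each, difference 0.36, adjusted p = 0.0012). The 5 glutamate and aspartate carriers of the same family, Slc1a1, Slc1a2, Slc1a3, Slc1a6 and Slc1a7, were not called, and their differences ran from 0.03 to 0.23. Slc1a1, Slc1a3 and Slc1a6 were under the silent-gene level in both groups. Slc1a7 (0.23, adjusted p = 0.055) was called with median centring, without the dimmest genes, and without WTR- replicate 2 (0.31, adjusted p = 0.014).

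Slc7a11 (probe set 10498024), the light chain that imports cystine in exchange for glutamate, was the light chain with the largest difference. It read 10.90, 10.86 and 11.06 in WTR- and 11.86, 11.83 and 11.85 in MR13. All MR13 arrays lay above all WTR- arrays, and the gene rose 1.87-fold (difference 0.90, SE 0.06, adjusted p = 6.30e-06). Slc7a5 (probe set 10582275), the light chain for leucine and other large neutral amino acids, went the other way. It read 12.11, 12.16 and 12.19 in WTR- and 11.50, 11.68 and 11.60 in MR13, again without overlap, a fall of 1.47-fold (difference -0.56, SE 0.06, adjusted p = 9.65e-05). Both proteins need the heavy chain encoded by Slc3a2 (probe set 10465772), which read 12.81, 12.82 and 12.82 in WTR- and 12.61, 12.65 and 12.62 in MR13. The groups did not overlap, but the difference was only -0.19 (95% CI -0.30 to -0.08, adjusted p = 0.012). After quantile normalization of the table it was -0.13 (adjusted p = 0.060). Beside this heavy chain, the light chains differed by 0.90 and -0.56.

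Of the other 8 light chains none was called. Slc7a6 (y+LAT2), which exchanges cationic for neutral amino acids, read 11.10 ± 0.07 in WTR- and 11.05 ± 0.09 in MR13 (SD, n = 3 each, 95% CI of the difference -0.19 to 0.10). Slc7a7, the light chain of y+LAT1, differed by -0.10 (95% CI -0.29 to 0.09), and Slc7a10 by 0.08. Slc7a8, Slc7a9, Slc7a12, Slc7a13 and Slc7a15 were under the silent-gene level in both groups. The second heavy chain, Slc3a1 (rBAT), pairs with SLC7A9 in kidney and gut. Slc3a1 read 5.91, 5.96 and 5.74 in WTR- and 6.32, 6.06 and 6.15 in MR13, close to the silent-gene level. The MR13 values lay above the WTR- values by a narrow margin (difference 0.30, SE 0.08, adjusted p = 0.019). The call was lost without WTR- replicate 3 (0.24, adjusted p = 0.060) and without MR13 replicate 1 (0.23, adjusted p = 0.067).

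**Figure D2:**
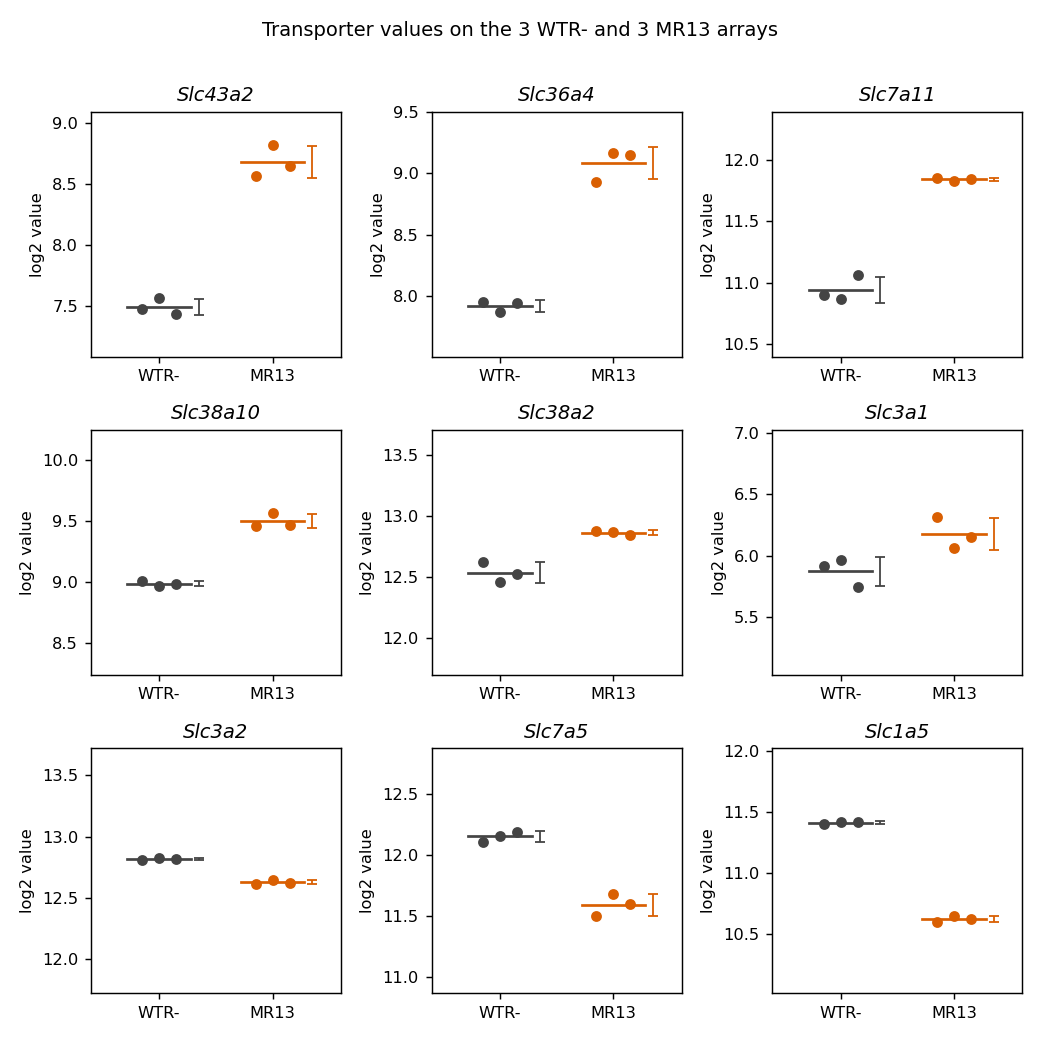
Deposited log2 values (y axis, each panel spanning the same range of log2 units) of 9 transporter genes on the 3 WTR- and 3 MR13 arrays (x axis). Points are arrays, lines group means and bars SDs. The groups do not overlap in any panel. Their means lie farthest apart for Slc43a2 (7.50 and 8.68) and closest for Slc3a2 (12.82 and 12.63). Single arrays of the groups come nearest for Slc3a1 (5.96 in WTR-, 6.06 in MR13).

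In the group of the cationic transporters, named for carriers of arginine, lysine and ornithine, Slc7a1 (CAT1) fell from 10.24 ± 0.07 to 9.75 ± 0.13 (SD, n = 3 each, difference -0.49, adjusted p = 0.00075). Slc7a2 (CAT2) was called higher (0.43, adjusted p = 0.0034), but both its means (4.76 and 5.19) were under the silent-gene level, and no fold is given. Slc7a3, Slc7a4 and Slc7a14 were not called. Single arrays mattered here. Slc7a3 (-0.25) was called lower without WTR- replicate 3 or MR13 replicate 2 (-0.34 in both cases) and after quantile normalization (-0.27). Slc7a4 (-0.20) was called lower without MR13 replicate 2 (-0.31), and Slc7a14 (0.18) higher without WTR- replicate 1 (0.29). Both means of Slc7a3 (5.26 in WTR-, 5.01 in MR13) and the WTR- mean of Slc7a14 (5.53) were under the silent-gene level.

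Of the uniporter group, made up of the SLC43 genes and Slc16a10, 3 of 4 members were higher in MR13. All 4 passed the silent-gene level in at least 1 group, where 51.2% of all genes were called in either direction. Slc43a2 (LAT4, probe set 10378649), which lets leucine, phenylalanine and methionine pass down their gradients, had the largest rise of all members. It read 7.48, 7.57 and 7.44 in WTR- and 8.57, 8.82 and 8.65 in MR13, with no overlap between groups. The rise was 2.27-fold (difference 1.18, SE 0.07, adjusted p = 3.25e-06). Its relative Slc43a1 (LAT3) lay near the silent-gene level and was not called (-0.09, 95% CI -0.29 to 0.11). Slc43a3, whose product is known as a purine base carrier rather than an amino acid carrier, rose by 0.34 (adjusted p = 0.0079). Slc16a10 (TAT1), a uniporter of aromatic amino acids, rose by 0.32, from 6.92 ± 0.08 to 7.23 ± 0.09 (SD, n = 3 each, adjusted p = 0.0042).

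In the SLC36 (PAT) family 3 of 4 members were higher and none was lower. All 4 passed the silent-gene level in at least 1 group, where 51.2% of all genes were called in either direction. Slc36a4 (PAT4, probe set 10583326), a high-affinity carrier of proline and tryptophan, read 7.95, 7.86 and 7.94 in WTR- and 8.93, 9.17 and 9.15 in MR13. The groups were about as far apart as those of Slc43a2, and the rise was 2.25-fold (difference 1.17, SE 0.07, adjusted p = 2.95e-06). Slc36a1 (PAT1), which exports small neutral amino acids from lysosomes, rose by 0.35 (SE 0.07, adjusted p = 0.0035). Slc36a3 was called higher (0.47, adjusted p = 0.010), from a WTR- mean of 5.47 under the silent-gene level, and to 5.94 in MR13. Slc36a2 was not called (0.13, 95% CI -0.01 to 0.27).

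The sodium-coupled neutral family (SNAT) was split, with 5 of 11 members higher and 2 lower. Among the 9 that passed the silent-gene level in at least 1 group, 4 were higher and 2 lower. Of all genes that passed it, 51.2% were called. Slc38a10 (probe set 10393728), a less studied member, read 9.01, 8.97 and 8.98 in WTR- and 9.46, 9.56 and 9.47 in MR13. The arrays of each group lay close together and the groups did not overlap (difference 0.51, SE 0.05, adjusted p = 6.70e-05). Slc38a2 (SNAT2, probe set 10431894), which is known to be induced when amino acids are short, read 12.62, 12.46 and 12.53 in WTR- and 12.88, 12.87 and 12.84 in MR13. It rose 1.25-fold (difference 0.33, SE 0.06, adjusted p = 0.0018), with no overlap between groups. Slc38a6 (0.32) rose to a like extent. Slc38a1 (SNAT1), a glutamine carrier, was called higher at 0.17 (adjusted p = 0.031), but a second probe set of the gene differed by 0.00 (SE 0.09). The mean of both was not called (0.08, adjusted p = 0.36), and neither was the chosen probe set without WTR- replicate 2 or 3 or MR13 replicate 2 or 3 (0.14 to 0.17).

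The SNAT members that fell both act at the lysosome. Slc38a7 (SNAT7), which exports glutamine and asparagine from lysosomes, fell from 8.35 ± 0.11 to 7.95 ± 0.03 (SD, n = 3 each, difference -0.41, adjusted p = 0.0010). Slc38a9, the lysosomal arginine sensor that acts on the kinase complex mTORC1, fell from 8.51 ± 0.10 to 8.13 ± 0.04 (difference -0.39, adjusted p = 0.0011). A second probe set of Slc38a9 differed by only -0.10 (adjusted p = 0.18), and the gene kept its call when both were averaged. Slc38a11 was called at 0.16 (adjusted p = 0.041) with both means under the silent-gene level, and the call was lost without WTR- replicate 2 or 3 or any MR13 array (adjusted p = 0.054 to 0.14). Slc38a3, Slc38a4, Slc38a5 and Slc38a8 were not called, with differences from -0.04 to 0.21.

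In family 6 the taurine carrier gene Slc6a6 was called higher (0.20, adjusted p = 0.022) and the glycine carrier gene Slc6a9 lower (-0.20, adjusted p = 0.024). Both calls were near the threshold. That of Slc6a6 was lost without WTR- replicate 2 or 3 or MR13 replicate 1 or 2 (0.17 to 0.19). That of Slc6a9 was lost without any WTR- array or without MR13 replicate 1 or 3 (-0.20 to -0.17). Slc6a14, a carrier of neutral and cationic amino acids that some carcinomas use, was under the silent-gene level in both groups (3.88 and 3.98).

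The genes of the amino acid response, most of them known ATF4 targets and none of them a transporter of the 46, moved mainly one way. Of 32 measured genes of that list, 27 fell and 2 rose, where 20.6% of all genes fell, and their median difference was -0.68. All 27 were among the 31 that passed the silent-gene level in at least 1 group. Of all genes, 13932 passed it, and 3952 of these fell. The direction of some of these genes was known when the list was written, so that the count is a description. Atf4 itself fell from 9.98 ± 0.11 to 9.58 ± 0.05 (SD, n = 3 each, difference -0.40, adjusted p = 0.0011). Gpt2, which makes alanine from pyruvate and glutamate, fell by 2.30, Mthfd2, a mitochondrial folate enzyme, by 1.53, and Aldh18a1, which starts proline synthesis, by 1.42. Asns, the asparagine synthetase, read 12.65, 12.73 and 12.62 in WTR- and 11.57, 11.67 and 11.65 in MR13, a fall of 2.05-fold. The transcription factor Cebpb (1.25) and the lipoprotein receptor Vldlr (0.77) were the 2 that rose. Beside these genes, the transporters Slc1a5, Slc7a5 and Slc7a1 fell, and Slc7a11, Slc38a2 and Slc1a4 rose. Slc7a11, Slc7a5 and Slc38a2 are all known as genes that ATF4 can induce.

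**Figure D3:**
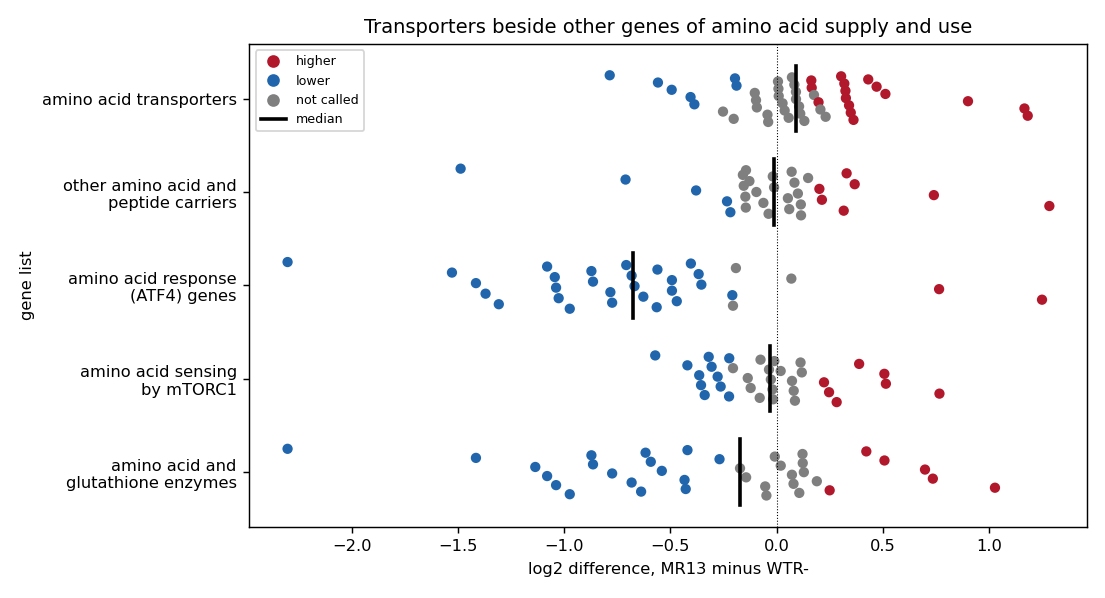
Genes of 5 lists (y axis) by their log2 difference between MR13 and WTR- (x axis). Each point is 1 gene, colours give the call (limma, adjusted p below 0.05), and each black bar marks a median. The amino acid response genes centre on -0.68, while the transporters centre on 0.09 and spread from -0.79 to 1.18.

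The promoters of the genes that went apart are shown with the letters known as the core of the amino acid response element that ATF4 binds, TGATGNAA on either strand, in capitals. RefSeq promoter windows of assembly GRCm38.p6, 250 bases before to 50 after a gene's start, were found for 34 of the 46 transporters. Of these 34 genes, 3 held the core, namely Slc7a11, Slc1a4 and Slc7a7. Among the genes tested here that had a window 3.62% held it (4.51% of all genes of the table), and among 28 genes of the amino acid response list 10 did. By call it was found in 2 of 12 transporters that rose, 0 of 5 that fell and 1 of 17 not called. Slc7a5 and Slc1a5 had no window in the table. The core of the antioxidant response element that NRF2 binds, TGACNNNGC on either strand, was found in 6 of 34 transporters and in 15.16% of the genes tested here that had a window (13.99% of all genes of the table). It was found in Slc38a2, Slc36a1, Slc6a9, Slc7a1, Slc43a1 and Slc7a6, and not in the Slc7a11 window. Such matches are letters in a window and not evidence of binding. The 2 transporters that rose and hold the amino acid response core are printed 5′ to 3′ on the gene's strand, from 250 bases before to 20 after the start, with 2 genes of the response that hold it and fell, Pck2 (-1.37, the largest fall among them) and Chac1, which breaks down glutathione (-0.77).
Slc7a11, chr3:50443594-50443863, - strand: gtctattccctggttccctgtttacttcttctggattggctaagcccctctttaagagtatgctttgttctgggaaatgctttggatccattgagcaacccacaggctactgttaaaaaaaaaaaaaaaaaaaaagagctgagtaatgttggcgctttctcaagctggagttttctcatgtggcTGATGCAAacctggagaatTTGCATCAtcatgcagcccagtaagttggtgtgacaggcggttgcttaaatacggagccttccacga
Slc1a4, chr11:20332694-20332963, - strand: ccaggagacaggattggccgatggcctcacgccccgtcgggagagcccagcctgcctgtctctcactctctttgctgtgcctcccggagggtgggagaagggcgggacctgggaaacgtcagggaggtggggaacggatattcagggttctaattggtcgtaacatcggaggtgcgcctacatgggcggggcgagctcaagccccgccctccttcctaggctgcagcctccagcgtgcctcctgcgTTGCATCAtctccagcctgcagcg
Pck2, chr14:55540016-55540285, + strand: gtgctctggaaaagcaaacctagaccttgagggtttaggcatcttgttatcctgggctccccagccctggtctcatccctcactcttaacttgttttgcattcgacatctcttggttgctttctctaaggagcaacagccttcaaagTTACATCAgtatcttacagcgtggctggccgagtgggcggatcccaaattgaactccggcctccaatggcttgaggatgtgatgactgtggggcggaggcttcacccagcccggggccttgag
Chac1, chr2:119350992-119351261, + strand: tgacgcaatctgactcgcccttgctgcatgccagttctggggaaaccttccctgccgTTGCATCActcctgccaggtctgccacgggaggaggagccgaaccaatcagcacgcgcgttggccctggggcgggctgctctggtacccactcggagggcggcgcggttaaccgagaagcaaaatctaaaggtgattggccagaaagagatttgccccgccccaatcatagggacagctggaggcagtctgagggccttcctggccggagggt
In Slc7a11 the core occurs once on each strand, beginning 66 and 47 bases before the start. In Slc1a4 it lies across the start. The core stood in windows of 2 transporters that rose, of the uncalled Slc7a7, and of response genes that fell. It also stood in those of Vldlr, a response gene that rose, and of Fgf21, a response gene not called. None of the 5 transporters that fell and had a window held it. As 3.62% of the genes tested with a window held the core, 5 genes are too few to show a lack of it. The printed genes were picked by their direction, so they cannot show whether the core goes with it.

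The transporters were then set beside the enzymes and other carriers of the same substrates, in groups made after the values were seen. Of 37 measured enzymes of amino acid and glutathione metabolism, 18 fell and 6 rose, with a median of -0.17. Over all genes, 20.6% fell and 17% rose. At least 1 group mean passed the silent-gene level for 34 of the 37. All 24 called genes were among these 34. They were 64.9% of the 37, which include genes that did not pass it. Of all genes that passed it, 51.2% were called. In this list, 9 genes, Gpt2 among them, also stand in the amino acid response list, and all 9 fell. Thus 9 of the 18 falls are counted in both lists. For cystine, the rise of Slc7a11 stood beside rises of the glutathione synthesis genes Gclc (0.51, adjusted p = 0.00013), Gclm (0.42, adjusted p = 0.00015) and Gss (0.25, adjusted p = 0.023). Gclc read 10.18, 10.05 and 10.14 in WTR- and 10.68, 10.64 and 10.57 in MR13, without overlap. Cth, which makes cysteine inside the cell from cystathionine, fell by 0.86. The glutathione-degrading enzyme genes Chac1 (-0.77) and Chac2 (-0.62) fell too, and so did the peroxidase gene Gpx4 (-0.42). Ctns, which exports cystine from lysosomes, had the largest fall of the 31 other amino acid and peptide carriers. It read 9.96, 9.85 and 9.93 in WTR- and 8.32, 8.46 and 8.49 in MR13, a fall of 2.81-fold (difference -1.49, SE 0.06, adjusted p = 3.41e-07).

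For glutamine, the importer gene Slc1a5 fell while Glul, the glutamine synthetase, rose 2.04-fold. Glul read 9.58, 9.67 and 9.70 in WTR- and 10.64, 10.71 and 10.68 in MR13 (difference 1.03, SE 0.05, adjusted p = 1.17e-06). Of the enzymes that use glutamine or glutamate, Asns (-1.04), Got1 (-0.64) and Glud1 (-0.43) fell, and Got2 was not called (-0.14). For large neutral amino acids, Slc7a5 fell and the uniporters Slc43a2 and Slc16a10 rose. Slc25a44, the mitochondrial carrier of branched-chain amino acids, also rose (0.33, adjusted p = 0.0052), and Bckdhb, a subunit of the enzyme that degrades them, fell by 0.59, whereas Bcat2, Bckdha, Dbt and Bckdk were not called.

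For arginine, the fall of Slc7a1 stood beside falls of the mitochondrial ornithine carrier Slc25a15 (-0.71), the argininosuccinate lyase Asl (-0.43) and the ornithine decarboxylase Odc1 (-0.54). Arg2, the mitochondrial arginase, rose by 0.70 (adjusted p = 7.11e-06), and Slc25a29, a mitochondrial carrier of basic amino acids, by 0.37. For proline, Slc36a4 and Slc36a1 rose, and the enzymes that make and degrade it inside the cell, Aldh18a1 (-1.42) and Prodh (-1.14), both fell. Of the 31 other amino acid and peptide carriers 7 rose and 5 fell, with a median of -0.01, and the share called was 38.7% against 37.6% of all genes. The lysosomal peptide carrier Slc15a3 had the largest rise among them (1.29, adjusted p = 3.77e-07). Slc15a2, another peptide carrier, was called at 0.74 with both means under the silent-gene level.

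**Figure D4:**
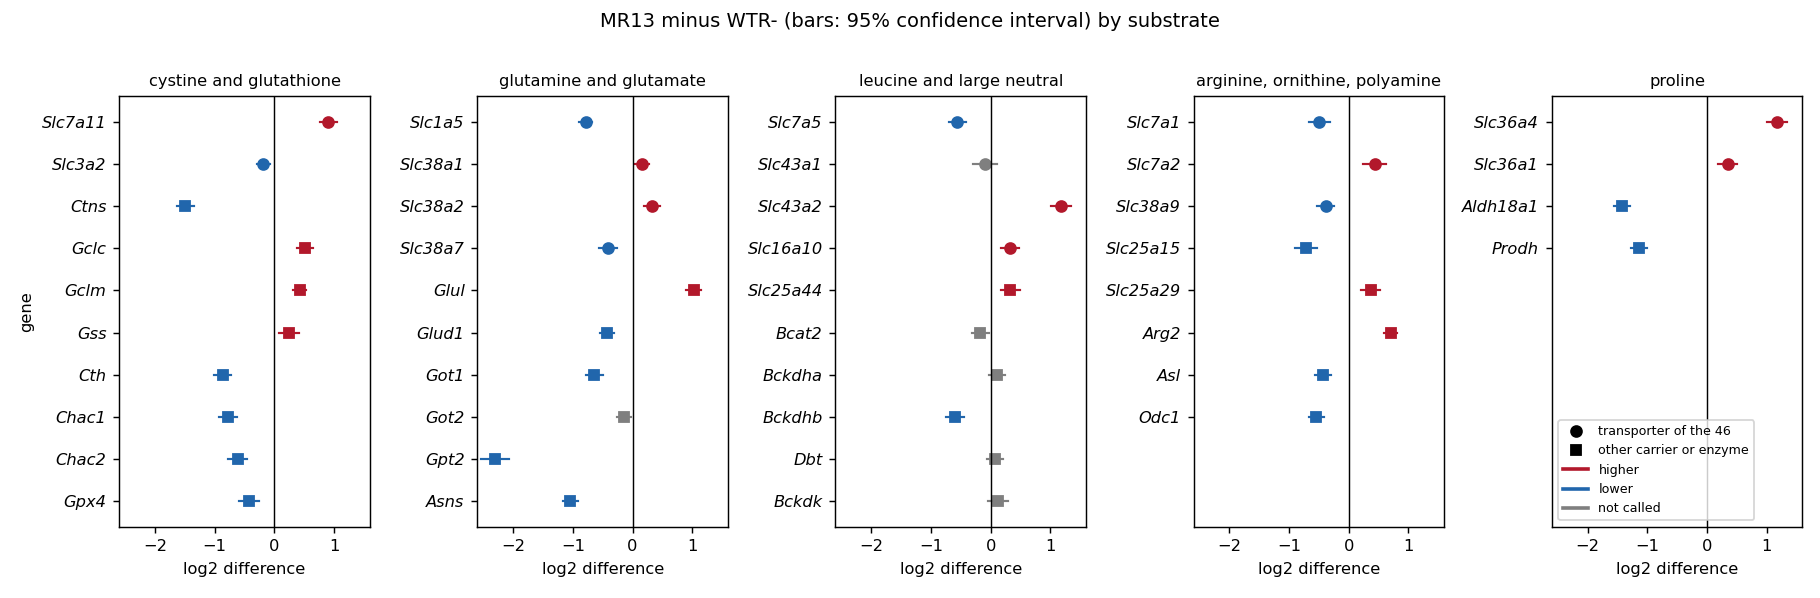
Log2 difference between MR13 and WTR- (x axis) of transporters (circles) and of enzymes and other carriers (squares) by substrate (panels). Bars are 95% confidence intervals and colours the call at an adjusted p under 0.05. Slc7a11 (0.90) lies on the same side as Gclc, Gclm and Gss, whereas Slc36a4 (1.17) lies opposite Aldh18a1 (-1.42) and Prodh (-1.14).

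Of 34 measured genes by which mTORC1 senses amino acids, 7 were higher and 11 lower, with a median of -0.03. Over all genes, 17% were higher and 20.6% lower. At least 1 group mean passed the silent-gene level for 32 of the 34. All 18 called genes were among these 32. They were 52.9% of the 34, which include genes that did not pass it. This share was near the 51.2% of all genes that passed it. The arginine sensor Castor1 fell by 0.57 (adjusted p = 4.97e-05), and its relative Castor2 rose by 0.77 (adjusted p = 9.54e-06). Of the leucine sensor family, Sesn1 (0.51) and Sesn3 (0.51) rose, and Sesn2 was not called (-0.21, adjusted p = 0.055). Wdr24, a subunit of the GATOR2 complex, fell by 0.42 and Fnip1, a partner of folliculin, by 0.36. Mtor itself was not called (0.07).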

How the data were processed

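Total RNA of 6 wells, 3 of WTR- and 3 of MR13 cells, was measured on Affymetrix Mouse Gene 1.0 ST arrays, grouped and numbered by their titles. The deposited values were log2 signals normalized by the authors, and the submitters' processing notes name affy and limma. Versions, background correction and the method of normalization are not given in the sources used here. That the scale is log2 was inferred from the range, 2.42 to 14.39. For arrays, their number limits the precision.

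Of 28350 probe sets, 21780 had 1 gene symbol in the platform annotation, 1618 had several and 4952 were unnamed here. For a gene with several probe sets, the one whose mean over all 6 arrays was highest was used. All 46 members had at least 1 probe set, and 48 probe sets were annotated to them. MR13 and WTR- were compared with limma 3.58.1 in R 4.3.3 (lmFit and eBayes, two-sided, no covariate), with Benjamini-Hochberg adjustment over 19933 genes. The check of whether equal replicate numbers pair the samples is given with the alternatives. The members and lists were chosen with earlier results of these data known. Members called with a difference of at least 0.5, and Slc3a1, Slc3a2, Slc7a5, Slc7a11, Slc1a5 and Slc38a2, were to be given array by array. Of the other lists, up to 3 called genes in each direction were named, plus those compared with a transporter of the same substrate, and any further gene named was chosen after its values were seen. The alternatives were another normalization or centring, a filter on dim genes, other uses of the probe sets, another variance prior, a replicate block, leaving out each array, and the methods' t-test, which the study names for comparing groups in general and not for these arrays. The scripts were tested on simulated data. The table held 0 columns of another series.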

Additional observations from a re-analysis of the deposited data

How the results depend on the processing

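The counts of called transporters stayed within 12 to 17 higher and 6 to 9 lower over the 15 alternatives run. The ranges were 26 to 29 lower for the amino acid response list and 17 to 20 lower for the enzymes. Of the 23 called members, 15 kept their call under all 15 alternatives, 8 lost it under at least 1 (Slc3a1, Slc3a2, Slc36a3, Slc38a1, Slc38a11, Slc43a3, Slc6a6 and Slc6a9), and 4 others gained one (Slc1a7, Slc7a3, Slc7a4 and Slc7a14). No called member changed sign. A filter that dropped the dimmest 30% of genes moved the median difference of the transporters from 0.09 to 0.17, with 33 members left. With the methods' t-test 16 members were higher and 7 lower at an unadjusted p under 0.05, and 13 and 7 after Benjamini-Hochberg adjustment, where Slc36a3, Slc43a3 and Slc3a1 were lost. Leaving out single arrays gave 12 to 17 members higher, 6 to 9 lower and a median of 0.06 to 0.12.

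With the replicate number as a block, 14 transporters were higher and 7 lower, and 7442 of all genes were called against 7497 without it. Slc38a1 (adjusted p = 0.055) and Slc38a11 (adjusted p = 0.064) lost their calls. Deviations of arrays with the same number correlated across genes at 0.13, 0.00 and 0.18. Those of arrays with different numbers correlated at -0.20 to 0.05. The labels name no shared batch, and whether equal numbers mark one was not tested. For the 13 members under the silent-gene level in both groups, signal limits what the differences can show.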
